A study of Mus musculus with 12 samples.

Results

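The transcriptomes of 3 tumors treated with RCM1-NPFA were compared with those of 3 vehicle-treated tumors, 6 of the 12 tumors in the series. The RCM1-NPFA tumors are m7, m8 and m9 and the vehicle tumors are m1, m2 and m3, chosen by their titles. All tumors were grown from Rd76-9 cells, a single mouse rhabdomyosarcoma line, injected into the flank of wild-type C57Bl/6J mice 8 to 12 weeks old. Host and tumor thus share a species, and apart from Y-linked transcripts their reads cannot be separated. RCM1-NPFA is the small molecule RCM1, an inhibitor of FOXM1, packed in folic acid-coated nanoparticles and given intravenously at 8 µg every 48 hours from day 7. Vehicle mice received empty nanoparticles and saline, although 1 label of the vehicle tumors also names the RCM1 particle. Tumors were collected at day 16. The other 6 tumors received VCR (vincristine, a drug that blocks microtubules) at 0.25 mg/kg every 7 days, 3 of them together with RCM1-NPFA. The labels do not say that each tumor came from its own mouse, and the p-values measure only the spread between these tumors.

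FOXM1 is a forkhead transcription factor of dividing cells that drives the genes of entry into mitosis, among them cyclins, mitotic kinases and chromosome passenger proteins. Rhabdomyosarcoma is a tumor of the skeletal muscle lineage whose cells carry early myogenic factors but do not finish differentiation. A tumor under the skin also holds vessels, fibroblasts and leukocytes of the host and can touch fat and body-wall muscle.

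Estimated counts of reads came to between 29342195 and 32108055 in the 6 tumors, and 17602 genes had enough of them to be tested. Levels are in CPM, the counts of a gene scaled by library size with TMM, an edgeR factor for differences in composition, and changes are log2 fold changes of RCM1-NPFA over vehicle with their standard error (SE), from 1 edgeR fit of all 12 tumors. The tumors of each group differed among themselves as much as between groups. The chi-squared of their counts per degree of freedom had a median of 45.3 over the 6 pairs within a group and of 33.1 over the 9 pairs across groups. Tumor m9 stood apart, with 266 of 14010 genes at least 4-fold above the vehicle mean, against 10 in m7 and 22 in m8. Tumors m1 and m3 stood apart within the vehicle group, m1 with 83 genes at least 4-fold above the mean of the other 2 vehicle tumors and m3 with 132 genes at least 4-fold below it. Summed Y-linked transcripts were 1.30, 1.08 and 16.2 CPM in m1, m2 and m3 and 0.695, 19.1 and 26.0 CPM in m7, m8 and m9. They were thus present in m3, m8 and m9 and near 0 in m1, m2 and m7, which is not balanced between the groups. By the paper, Rd76-9 came from a female mouse, so Y-linked reads would be those of the hosts, whose sex it does not give. The part of Y-linked transcripts in the results was not tested beyond a fit with a term for them.

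With edgeR and Benjamini-Hochberg adjustment, 0 of 17602 genes (0%) passed an adjusted p of 0.1, and the lowest adjusted p was 0.419. At an unadjusted p under 0.05, 940 genes (5.34%) were higher and 782 (4.44%) lower after RCM1-NPFA. Every RCM1-NPFA tumor lay above every vehicle tumor for 978 genes (5.56%) and below for 1031 (5.86%). The DESeq2 Wald test, the tool of the study, called 204 genes higher (1.11%) and 74 lower (0.404%) at the same threshold. Of the 204 higher genes, 178 (87.3%) had their highest RCM1-NPFA value in m9, against 31.8% of all tested genes. Higher and lower below describe values that edgeR did not call, and a DESeq2 call is given only where it is stated.

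The largest differences between the groups were in transcripts of mature skeletal muscle, and they were large in a single tumor. Of 23 tested muscle fibre genes, 23 were higher after RCM1-NPFA with a median log2 fold change of 6.75, against 0.0028 for all tested genes. Without m9 the median was 1.32. The summed level of the list was 471, 323 and 349 CPM in m1, m2 and m3, 432 and 580 CPM in m7 and m8, and 22103 CPM in m9, or 2.19% of its counts. DESeq2 called 19 of the 23 members with m9, among them *Ckm*, *Acta1*, *Mylpf*, *Myh1*, *Mb* and *Xirp2*, and it called none of these 6 without m9. In this sum m9 was 46.9-fold above the highest vehicle tumor, while m7 lay within the vehicle range.

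*Ckm*, muscle creatine kinase, was at 11.5, 0.034 and 0.101 CPM in the vehicle tumors and at 6.26, 11.1 and 2262 CPM in m7, m8 and m9. The groups overlapped, since vehicle tumor m1 was above both m7 and m8. Its log2 fold change was 7.59 (SE 2.44, edgeR adjusted p = 0.419), and 1.13 without m9. *Acta1*, skeletal alpha-actin, was at 18.3, 1.28 and 0.403 CPM in vehicle and at 24.9, 42.6 and 3031 CPM after RCM1-NPFA. Its groups did not overlap, and its log2 fold change went from 7.27 to 2.32 without m9. *Myh4*, the myosin heavy chain of fast fibres, was at 22.6, 0 and 0 CPM in vehicle and at 1.42, 11 and 4898 CPM after RCM1-NPFA. Its log2 fold change of 7.75 turned to -0.29 without m9, and that of *Actn3*, the fast-fibre actinin, went from 6.63 to -0.15. *Pvalb*, the calcium buffer of fast fibres, went from 8.04 to 0.84, and *Trim54*, a ubiquitin ligase of the sarcomere, from 7.53 to 1.12.

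The promoters of *Ckm*, *Acta1* and *Mylpf*, the fast myosin light chain, are shown because these transcripts moved together in m9. Each is the 250 bases before the RefSeq start on the coding strand in build GRCm38.p6, with the E-box CANNTG, the binding motif of the MyoD family, in capitals. The motif reads as CANNTG on both strands. The windows lie at chr7:19410844-19411093 on the + strand for *Ckm*, chr8:123894776-123895025 on the - strand for *Acta1* and chr7:127211358-127211607 on the + strand for *Mylpf*.
Ckm: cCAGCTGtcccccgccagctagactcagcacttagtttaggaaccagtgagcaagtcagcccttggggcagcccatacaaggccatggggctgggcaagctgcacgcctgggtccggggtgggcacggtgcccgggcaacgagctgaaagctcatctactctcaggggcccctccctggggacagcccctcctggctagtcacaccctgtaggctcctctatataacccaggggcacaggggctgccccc
Acta1: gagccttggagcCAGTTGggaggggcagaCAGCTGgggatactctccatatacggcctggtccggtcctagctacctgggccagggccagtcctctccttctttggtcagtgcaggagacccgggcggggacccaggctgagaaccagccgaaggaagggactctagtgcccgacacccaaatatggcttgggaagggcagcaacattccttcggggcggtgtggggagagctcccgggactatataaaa
Mylpf: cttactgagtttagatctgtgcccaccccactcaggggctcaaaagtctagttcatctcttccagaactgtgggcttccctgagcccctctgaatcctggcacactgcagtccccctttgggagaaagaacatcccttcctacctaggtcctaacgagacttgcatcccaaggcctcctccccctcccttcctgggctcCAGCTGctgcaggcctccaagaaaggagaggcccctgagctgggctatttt
*Acta1* held 2 matches and the other 2 promoters 1 each. An E-box stood in 17 of the 21 promoters matched to 17 genes of the muscle fibre list (81.0%), and in 66.2% of all 32851 promoters of this length.

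A smaller set of muscle transcripts was also higher in m7 and m8. Of the 23 tested members, 13 had every RCM1-NPFA tumor above every vehicle tumor, and in m7 and m8 alone the same count was 13 (background 8.67% of 17985 genes above and 9.20% below). Without m9, 6 members had an unadjusted edgeR p under 0.05 (background 2.57% higher and 3.40% lower). *Myh1*, the myosin heavy chain of fast oxidative fibres, was at 7.16, 0.370 and 0.470 CPM in vehicle and at 23.6, 32.3 and 108 CPM after RCM1-NPFA. Tumors m7 and m8 were above every vehicle tumor and m9 was above both. Its log2 fold change was 4.33 (SE 1.03) and 3.36 without m9 (SE 0.95). *Mb*, myoglobin, was at 0.617, 0 and 0 CPM in vehicle and at 1.29, 4.60 and 40.1 CPM after RCM1-NPFA. *Actn2*, the Z-disc actinin, was at 0.648, 0.370 and 0.067 CPM in vehicle and at 3.05, 3.86 and 37.4 CPM after RCM1-NPFA. Its log2 fold change was 5.32 (SE 1.10) and 3.22 without m9 (SE 0.68), and DESeq2 called it with m9 (adjusted p = 0.000592) and without it (adjusted p = 0.0358). *Xirp2*, a sarcomere-bound actin-binding protein, had 10, 0 and 2 counts in the vehicle tumors against 67, 36 and 4533 after RCM1-NPFA, and *Eef1a2*, a translation elongation factor of muscle and neurons, had 14, 3 and 1 counts against 42, 58 and 4469. For both, every vehicle tumor lay below m7 and m8, at 14 reads or fewer.

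**Figure D1:**
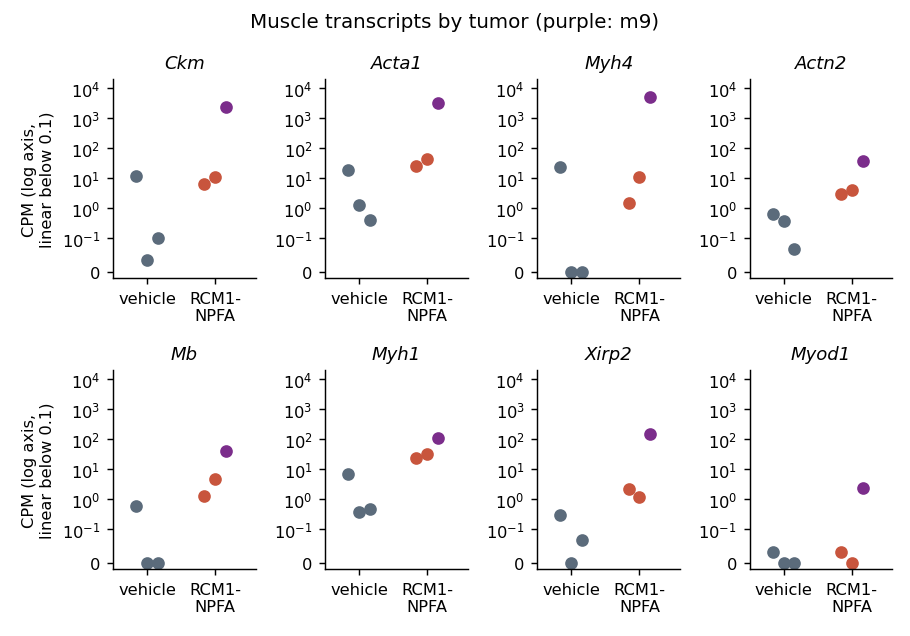
CPM of 8 muscle transcripts in each tumor, on a log axis that is linear below 0.1 CPM. Each point is a tumor, vehicle m1 to m3 in grey from left to right and RCM1-NPFA m7 and m8 in red and m9 in purple. Tumor m9 is the highest point in all 8 panels, and m7 and m8 overlap the vehicle tumors for *Ckm*, *Myh4* and *Myod1*.

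The list of myogenic lineage genes was also highest in m9. Of 14 tested members, 10 were higher and 7 of these had an unadjusted edgeR p under 0.05 (5.34% of all genes), with a median log2 fold change of 0.74, and of 0.17 without m9. The summed level was 316, 365 and 410 CPM in vehicle and 344, 412 and 980 CPM after RCM1-NPFA. *Myf5*, an early myogenic factor, was at 52.6, 69.9 and 67.2 CPM in vehicle and at 51.7, 48.9 and 49.6 CPM after RCM1-NPFA. Every RCM1-NPFA tumor was lower, with m7 close below m1, and the log2 fold change was -0.34 (SE 0.11, edgeR adjusted p = 0.419) and -0.33 without m9. *Myod1*, which commits cells to muscle, had 1, 0 and 0 counts in the vehicle tumors and 1, 0 and 73 after RCM1-NPFA, and *Myog*, the factor of terminal differentiation, had 2, 0 and 1 against 0, 9 and 31. Per transcript length, *Myf5* was at 52.4 ± 7.35 TPM (SD, n = 3) in vehicle, beside 92.0 ± 13.5 for *Cdh15*, the muscle cadherin. *Myod1* was at 0.0102 TPM and *Myog* at 0.038 TPM in the same tumors, so 2 defining markers of the lineage were near 0. *Myl4*, the embryonic myosin light chain, was at 3.73, 3.29 and 3.53 CPM in vehicle and at 5.33, 5.71 and 5.48 CPM after RCM1-NPFA. Its groups did not overlap, DESeq2 called it with m9 (adjusted p = 0.0257) but not without it (adjusted p = 0.217), and its log2 fold change was 0.65 in both cases.

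Tumor m9 decided most of the large increases. Of 550 genes at least 2-fold higher, 384 (69.8%) shrank to under 0.5 times their log2 fold change or changed sign without m9, against 10 (1.82%) without m7 and 11 (2%) without m8. Of 300 genes at least 2-fold lower, 1 did so without m9, 0 without m7 and 2 without m8. With 3 treated tumors, 1 low tumor alone can hardly lower the group mean 2-fold. The count could therefore hardly find decreases that rest on a treated tumor, and it does not show that the decreases are robust. It was not run for the vehicle tumors. Among the genes that DESeq2 called, 131 of 204 higher and 0 of 74 lower rested on m9 in this sense. Without m9 DESeq2 called 19 genes higher (0.119%) and 22 lower (0.138%), of which 16 and 19 were also called with m9. Genes of other lists followed m9 too. *Des*, desmin, counted both as a myogenic and a pericyte gene, was at 573 CPM in m9 and at most 18.1 CPM in the other 5 tumors. *Hspb1* and *Cryab*, small heat shock proteins abundant in muscle, had log2 fold changes of 3.91 and 2.37 that became 0.95 and 0.62 without m9. *Tuba8*, an alpha-tubulin, went from 6.61 to 0.77 and *Abcb4*, a phospholipid transporter, from 2.43 to 0.31.

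**Figure D2:**
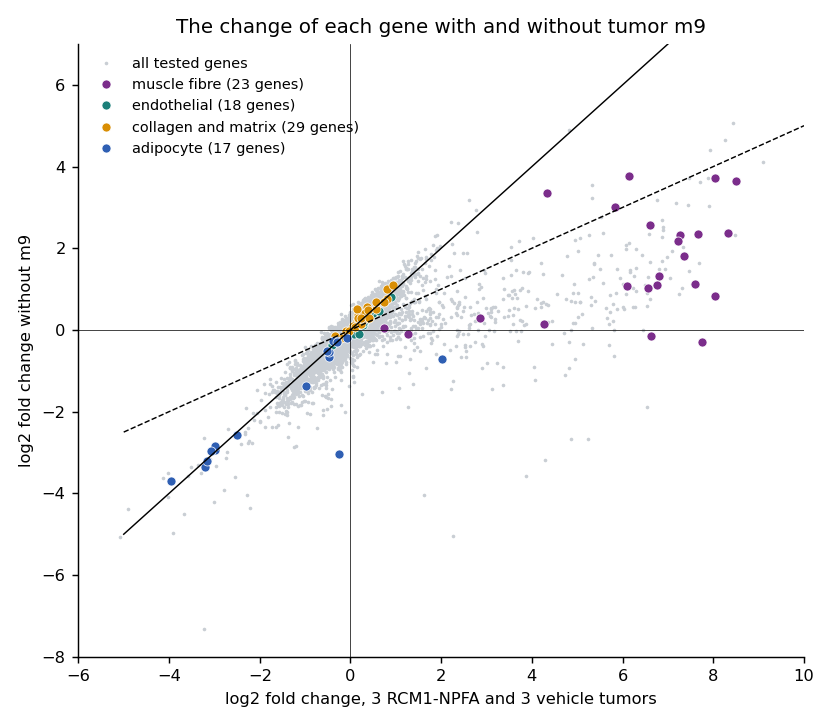
Each point is a tested gene, with the log2 fold change of RCM1-NPFA over vehicle on the x axis and the same without m9 on the y axis, both from edgeR. On the solid line nothing changes without m9 and on the dashed line 0.5 of the change is left. Most muscle fibre genes (purple) lie under the dashed line, while most endothelial (green) and collagen genes (orange) lie near the solid line. The adipocyte genes (blue) had a median of -0.52 with m9 and of -1.37 without it.

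Transcripts of blood vessels were higher after RCM1-NPFA, with and without m9. Of 18 endothelial genes, 17 were higher, 11 had an unadjusted edgeR p under 0.05 (5.34% of all genes), and 9 had every RCM1-NPFA tumor above every vehicle tumor (5.56% of all genes). The median log2 fold change was 0.42, and 0.38 without m9, where 15 were higher and 8 had an unadjusted p under 0.05 (2.57% of all genes). In bulk tumors, a change in the number of cells of a type and a change in RNA per cell cannot be told apart. The summed level was 408, 295 and 355 CPM in vehicle and 435, 407 and 492 CPM after RCM1-NPFA, so that m8 lay just below m1.

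*Pecam1*, the gene of the endothelial junction protein CD31, was at 47.7, 35.4 and 40.9 CPM in vehicle and at 54.1, 49.7 and 55.9 CPM after RCM1-NPFA. Its groups did not overlap, m8 being close to m1, and its log2 fold change was 0.36 (SE 0.13, edgeR adjusted p = 0.437; two-sided exact permutation p = 0.1, the smallest that 3 against 3 allow). *Egfl7*, a factor secreted by endothelium, was at 19.9, 13.0 and 15.4 CPM in vehicle and at 23.8, 20.8 and 30.4 CPM after RCM1-NPFA, and DESeq2 called it with m9 (adjusted p = 0.0873) but not without it (adjusted p = 0.725). *Tek*, the angiopoietin receptor, was at 4.04, 3.23 and 1.58 CPM in vehicle and at 5.20, 5.08 and 6.07 CPM after RCM1-NPFA. *Cdh5*, *Esam*, *Eng*, *Robo4*, *Erg* and *Sox17* were the other members without overlap, with log2 fold changes of 0.29, 0.51, 0.38, 0.42, 0.59 and 0.43. The 1 member that was lower, named after its values were seen, was *Vwf*, stored in endothelial granules, with a log2 fold change of -0.42 and overlapping groups.

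*Rgs5*, a regulator of G protein signalling that marks pericytes, had the lowest p of all tested genes. It lies at chr1:169655501-169695813 (GRCm38). Its level was 32.2, 29.4 and 27.4 CPM in vehicle and 47.0, 46.7 and 50.1 CPM after RCM1-NPFA. The RCM1-NPFA tumors were nearly equal and all well above the vehicle tumors. The log2 fold change was 0.69 (SE 0.11, edgeR adjusted p = 0.419) and 0.66 without m9, and DESeq2 called it with m9 (adjusted p = 0.000535) and without it (adjusted p = 0.0143). The pericyte and smooth muscle list as a whole had a median of 0.094 over 13 genes, 3 of them above without overlap (5.56% of all genes). Beside *Rgs5* and *Des* these included *Higd1b*, a small hypoxia-domain gene of pericytes, at 0.54. *Des*, also counted as a myogenic gene, followed m9 as given above. *Epas1*, the hypoxia-inducible factor of endothelium, was at 17.0, 16.3 and 14.3 CPM in vehicle and at 22.3, 25.7 and 29.3 CPM after RCM1-NPFA, a log2 fold change of 0.70 (SE 0.14) that DESeq2 called (adjusted p = 0.00351).

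Most collagen and matrix genes were higher, by a small median. Of 29 genes, 25 were higher, 9 had an unadjusted edgeR p under 0.05 (5.34% of all genes) and 5 lay above all vehicle tumors (5.56% of all genes), with a median log2 fold change of 0.26 and of 0.30 without m9. The summed level was 16617, 14134 and 18897 CPM in vehicle and 22497, 18735 and 16554 CPM after RCM1-NPFA. Only m7 was above every vehicle tumor in this sum, and m9 was close to the vehicle mean. *Col1a1*, a chain of type I collagen, was at 522, 425 and 496 CPM in vehicle and at 1104, 833 and 589 CPM after RCM1-NPFA. Tumor m9 was the lowest of the treated tumors and still above m1. The log2 fold change was 0.81 (SE 0.20, edgeR adjusted p = 0.419) and 1.01 without m9 (SE 0.17), and DESeq2 gave adjusted p = 0.0104 with m9 and 3.38e-05 without it.

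*Fmod*, fibromodulin, a proteoglycan that binds collagen fibrils, was at 54.7, 33.9 and 67.3 CPM in vehicle and at 142, 151 and 69.5 CPM after RCM1-NPFA. Here m9 was level with the highest vehicle tumor while m7 and m8 were more than 2-fold above it. Its log2 fold change was 1.22 (SE 0.30) and 1.5 without m9, with DESeq2 adjusted p = 0.0348 and 1.56e-05. *Sparc*, a collagen-binding matrix protein, was at 1112, 1159 and 1352 CPM in vehicle and at 1605, 1604 and 1321 CPM after RCM1-NPFA, and DESeq2 called it only without m9 (adjusted p = 0.0577). *Col15a1*, of vessel and muscle basement membranes, had a log2 fold change of 0.56 and *Col4a1*, of basement membranes, 0.29. *Col5a1*, which starts collagen fibrils, had 0.29 and *Timp1*, an inhibitor of matrix proteases, 0.26, each of these genes without overlap. The list held 5 genes without overlap, so not all of those named with *Col1a1* and *Fmod* were members of it.

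Outside the lists, *Hs6st1*, a heparan sulfate 6-O-sulfotransferase, was at 101, 96.3 and 124 CPM in vehicle and at 163, 166 and 145 CPM after RCM1-NPFA. *Mgat3*, which adds the bisecting N-acetylglucosamine to N-glycans, was at 15.4, 14.3 and 16.5 CPM in vehicle and at 20.5, 23.5 and 26.2 CPM after RCM1-NPFA. For both the treated tumors lay above all vehicle tumors, with log2 fold changes of 0.56 (SE 0.10) and 0.61 (SE 0.10) and, without m9, 0.62 and 0.52, and DESeq2 called both with m9 (adjusted p = 0.000592 and 0.000548) and without it (adjusted p = 0.00101 and 0.0198). *Ebp*, a sterol isomerase of cholesterol synthesis, had a log2 fold change of 0.45, *Ckap4*, a membrane protein of the endoplasmic reticulum, 0.27, *Frmd5*, a FERM domain protein, 1.5, and *Rgs18*, a regulator of G protein signalling in blood cells, 1.65, all without overlap. The 21 cholesterol genes as a list had a median of 0.071 and 0 members without overlap.

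Transcripts of FOXM1 and of most mitotic genes differed little between the groups. *Foxm1*, at chr6:128362994-128375886, was at 139, 168 and 143 CPM in vehicle and at 148, 179 and 167 CPM after RCM1-NPFA. The groups overlapped, and the log2 fold change was 0.14 (SE 0.09, edgeR adjusted p = 0.682; two-sided exact permutation p = 0.3). RCM1 acts on the FOXM1 protein, so the transcript is no check of the label. Of the 25 FOXM1 target and mitotic genes, 21 were higher and 4 lower, with a median of 0.0999. At an unadjusted p under 0.05 there were 3, all higher, beside 5.34% of all genes higher and 4.44% lower. Without overlap there were also 3, all higher, where 5.56% of all genes lay above and 5.86% below. Of the 25 DNA replication genes, 23 were higher with a median of 0.075 and 0 at an unadjusted p under 0.05. Without m8 alone the medians were 0.0019 for the FOXM1 list and -0.047 for DNA replication.

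The promoters of *Ccnb1* and *Plk1*, a cyclin and a kinase of entry into mitosis, are shown as examples of the mitotic genes that FOXM1 drives. Each is again 250 bases before the RefSeq start on the coding strand, with the CCAAT box, read as CCAAT or ATTGG, in capitals. They lie at chr13:100786487-100786736 on the - strand and chr7:122159185-122159434 on the + strand.
Ccnb1: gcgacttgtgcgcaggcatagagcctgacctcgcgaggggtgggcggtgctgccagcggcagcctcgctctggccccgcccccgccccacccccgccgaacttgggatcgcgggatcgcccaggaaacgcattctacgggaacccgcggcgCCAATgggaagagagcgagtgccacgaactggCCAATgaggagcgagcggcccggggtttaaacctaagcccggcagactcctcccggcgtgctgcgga
Plk1: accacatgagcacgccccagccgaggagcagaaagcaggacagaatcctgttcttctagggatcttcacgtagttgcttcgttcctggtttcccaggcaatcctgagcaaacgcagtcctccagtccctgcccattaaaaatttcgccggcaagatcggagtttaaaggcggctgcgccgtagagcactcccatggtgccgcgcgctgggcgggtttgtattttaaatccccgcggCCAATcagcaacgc
*Ccnb1* held 2 CCAAT boxes and *Plk1* 1. A CCAAT box stood in 20 of the 22 promoters matched to 20 genes of this list (90.9%) and in 33.8% of all promoters of this length. The box was matched by its letters only and is not given here as a binding site of FOXM1.

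*Plk1* was at 103, 113 and 103 CPM in vehicle and at 118, 132 and 126 CPM after RCM1-NPFA. All treated tumors were higher, with a log2 fold change of 0.24 (SE 0.08, edgeR adjusted p = 0.428) and 0.23 without m9. *Aurka*, a kinase of the spindle poles, had a log2 fold change of 0.24 and *Cdc20*, an activator of the anaphase-promoting complex, 0.12, both without overlap, and *Birc5*, survivin, and *Aurkb*, the kinase of its complex, had 0.24 and 0.13 with overlapping groups. *Ccnb1* was at 102, 115 and 93.4 CPM in vehicle and at 94.3, 120 and 110 CPM after RCM1-NPFA, a log2 fold change of 0.06 (SE 0.10). *Mki67*, the Ki-67 antigen of cycling cells, was at 533, 604 and 421 CPM in vehicle and at 446, 594 and 514 CPM after RCM1-NPFA. Its log2 fold change was -0.0023 (SE 0.14), and that of *Top2a*, a topoisomerase of dividing cells, was -0.18 (SE 0.13), both with overlapping groups.

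**Figure D3:**
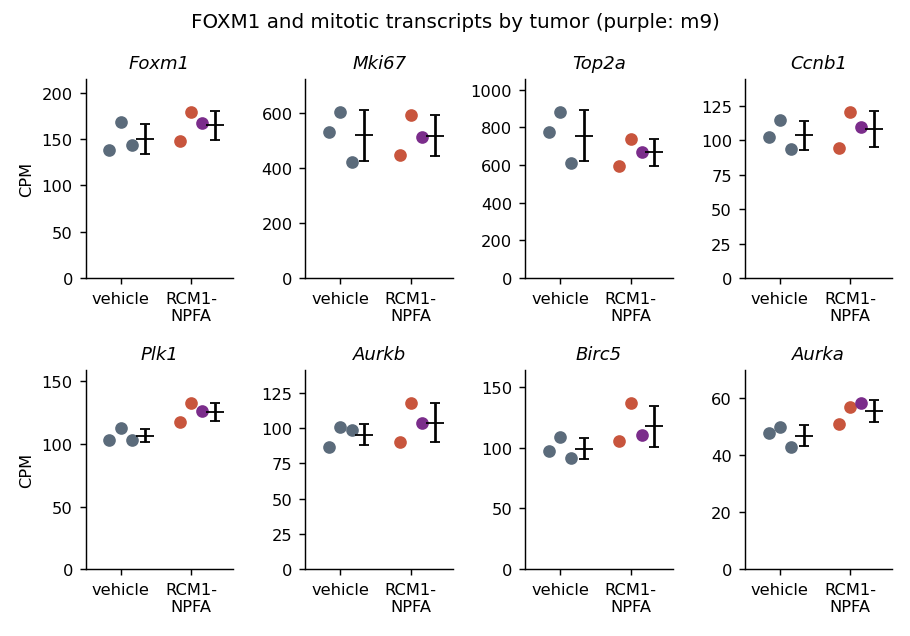
CPM of *Foxm1* and 7 genes of dividing cells in each tumor, from 0. Points are tumors as in the plot of muscle transcripts (m9 in purple), and the black mark is the mean ± SD of 3 tumors. The groups overlap in 6 panels and do not in those of *Plk1* and *Aurka*.

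Other targets of interest to a FOXM1 inhibitor were also compared, and their values differed in size. *Ctnnb1*, beta-catenin, had a log2 fold change of 0.0050, *Ccnd1*, cyclin D1, -0.020 and *Axin2*, a Wnt target, -0.16, all with overlapping groups. Of 15 tested BCL2 family genes, 8 were higher and 7 lower, with a median of 0.011 and 0 at an unadjusted p under 0.05. The 4 members without overlap, *Bax*, *Bak1*, *Bik* and *Bmf*, had log2 fold changes of 0.05, 0.07, 0.71 and 0.34, where 5.56% of all genes lay above without overlap. *Phlda3*, a p53 target that restrains AKT, was at 28.6, 21.0 and 33.2 CPM in vehicle and at 39.3, 36.9 and 42.7 CPM after RCM1-NPFA. Its groups did not overlap and its log2 fold change was 0.52, while the 17 p53 targets had a median of 0.019. *Chac1*, which degrades glutathione, was at 10.5, 21.7 and 30.6 CPM in vehicle and at 10.7, 19.2 and 12.8 CPM after RCM1-NPFA, a range within that of the vehicle tumors. The list of 26 genes of the ATF4 stress response had a median of -0.22, which was -0.0067 without m3.

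The receptors of the folic acid coat were measured too. *Folr1*, folate receptor alpha, was at 0.101 CPM or less in all 6 tumors and was too low to test. *Folr2*, the folate receptor of macrophages, was at 15.2, 15.3 and 22.9 CPM in vehicle and at 32.2, 31.2 and 21.3 CPM after RCM1-NPFA. Tumors m7 and m8 were above all vehicle tumors and m9 was not, with a log2 fold change of 0.66 (SE 0.24, edgeR adjusted p = 0.437) and 0.83 without m9. *Slc19a1*, the reduced folate carrier, had a log2 fold change of 0.02. The 20 macrophage markers had a median of 0.11, with 0 at an unadjusted p under 0.05.

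*Egfr*, the epidermal growth factor receptor at chr11:16752203-16913907, had the lowest p of the named genes that were lower. It was at 91.8, 102 and 105 CPM in vehicle and at 66.9, 73.9 and 76.0 CPM after RCM1-NPFA. The treated tumors were all below the lowest vehicle tumor, with a log2 fold change of -0.46 (SE 0.08, edgeR adjusted p = 0.419) and -0.50 without m9, and DESeq2 called it with m9 (adjusted p = 0.00274) and without it (adjusted p = 0.0143). *Kmt2d*, a histone H3 lysine 4 methyltransferase, was at 256, 239 and 253 CPM in vehicle and at 209, 193 and 201 CPM after RCM1-NPFA. *Rreb1*, a zinc finger factor downstream of RAS, was at 76.0, 76.1 and 68.5 CPM in vehicle and at 56.1, 57.3 and 62.5 CPM after RCM1-NPFA. Both were called by DESeq2 with and without m9, and their log2 fold changes were -0.31 (SE 0.06) and -0.33 (SE 0.06).

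*Ankhd1*, an ankyrin repeat protein, *Zfp646*, a zinc finger protein, *Snrnp200*, a helicase of the spliceosome, and *Rsbn1*, a nuclear protein, had log2 fold changes of -0.38, -0.34, -0.33 and -0.72 without overlap. *Tmcc3*, a membrane protein of the endoplasmic reticulum, was at 24.1, 26.7 and 16.6 CPM in vehicle and at 13.3, 11.1 and 15.5 CPM after RCM1-NPFA. *Setd5* and *Adnp*, chromatin proteins, and *Tsc1*, an inhibitor of mTORC1, had log2 fold changes of -0.32, -0.55 and -0.38, and *Igf1r*, the IGF1 receptor, had -0.19. All of these genes kept their direction without m9.

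Long transcripts were lower in the median. The 8 named lower genes with the lowest p and no overlap were all among the 3521 tested genes with the longest transcripts, of 5 groups by length, against 1 of the 8 higher genes. By length, the median log2 fold change was 0.054, 0.039, 0.020, -0.017 and -0.12 from the shortest group to the longest. In the longest group 466 genes (13.2%) were below all vehicle tumors without overlap, against 119 (3.38%) in the shortest. The pattern was the same in sign without m9, with -0.13 in the longest group. The part of transcript length in the levels of the genes just named was not tested. With offsets for transcript length in the fit, 0 genes were called, as in the main fit. These offsets cover only differences in the length of a gene between tumors, so this count does not bear on the pattern across genes.

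Among the chemokines, *Cxcl1*, which attracts neutrophils, was the 1 gene that DESeq2 called. It was at 22.2, 22.1 and 32.7 CPM in vehicle and at 13.0, 11.2 and 6.23 CPM after RCM1-NPFA. The groups were well apart, m9 being lowest, and the log2 fold change was -1.34 (SE 0.34, edgeR adjusted p = 0.419) and -1.08 without m9, with DESeq2 adjusted p = 0.0085 and, without m9, 0.152. Its relative *Cxcl2* had a log2 fold change of -1.01 with overlapping groups. The neutrophil list had a median of -0.48 over 8 genes, 0 of them at an unadjusted p under 0.05, and -0.19 without m9. *Rgs1*, a regulator of chemokine receptors, and *Evi2*, a gene of a viral integration site, had log2 fold changes of -1.27 and -1.12 that were -0.95 and -0.86 without m9. *Per1*, of the circadian clock, had -1.03 and -0.86, with m1 within the range of the treated tumors.

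**Figure D4:**
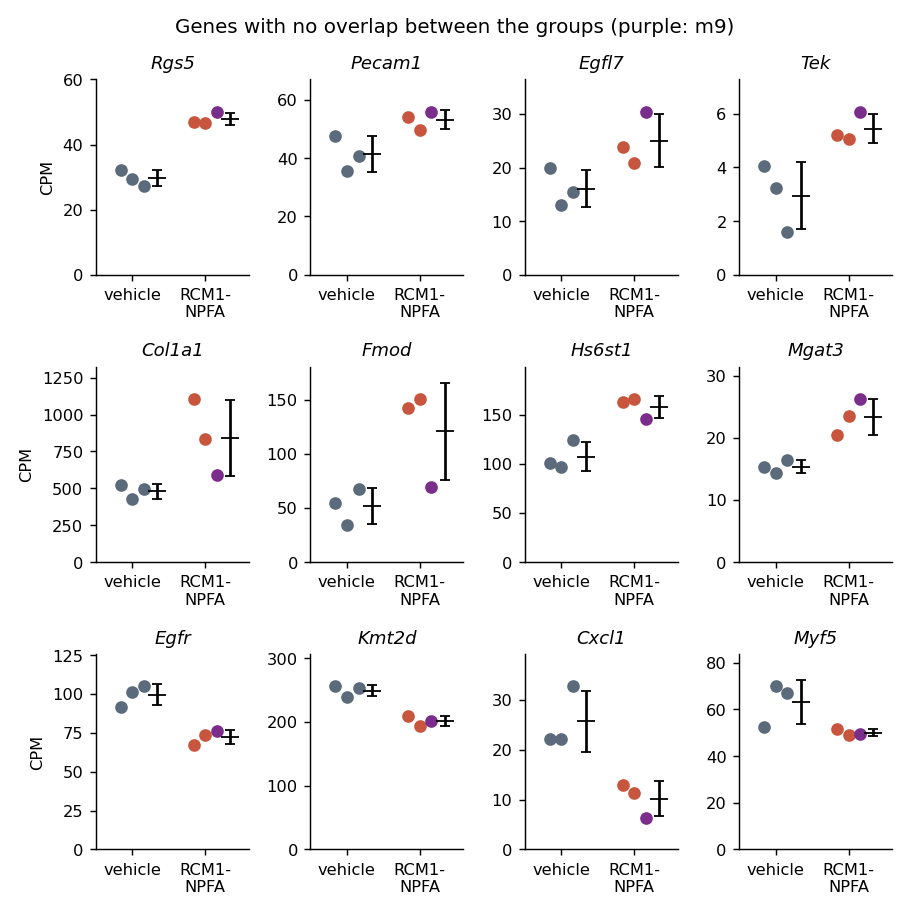
CPM of 12 genes whose groups did not overlap, from 0. Points are tumors (m9 in purple) and the black mark is the mean ± SD of 3 tumors. The vessel genes *Rgs5*, *Pecam1*, *Egfl7* and *Tek* are higher in all treated tumors, m9 is the lowest treated tumor for *Col1a1* and *Fmod*, and *Egfr*, *Kmt2d*, *Cxcl1* and *Myf5* are lower in all treated tumors.

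Fat, antigen presentation and lymphocyte genes were lower in the median. Of 17 adipocyte genes, 16 were lower, 7 at an unadjusted p under 0.05 (4.44% of all genes), with a median log2 fold change of -0.52. It was -1.37 without m9 and -0.55, -0.27 and -0.96 without m1, m2 and m3. *Plin1*, the coat protein of fat droplets, was at 2.56, 3.43 and 0.067 CPM in vehicle and at 0.099, 0.287 and 0.252 CPM after RCM1-NPFA. Tumors m1 and m2 were high, and m3 was below every treated tumor. *Lep*, leptin, and *Cidec*, a fat droplet protein, were also high in m1 and m2 only, with 0 counts in m3. *Fasn*, fatty acid synthase, and *Adig*, adipogenin, were the 2 members without overlap, with log2 fold changes of -0.29 and -2.5, *Adig* at under 1 CPM.

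All 25 genes of the interferon response and MHC class I were lower, with a median of -0.59, and 1 had an unadjusted p under 0.05 and 0 were without overlap. *Nlrc5*, the activator of MHC class I genes, was at 187, 65.0 and 17.9 CPM in vehicle and at 29.5, 8.30 and 29.6 CPM after RCM1-NPFA. Without m1 the median of the list was -0.14, and those of MHC class II and lymphocytes went from -0.61 and -0.34 to 0.50 and 0.46. *H2-Aa*, an MHC class II chain, was at 518, 64.3 and 20.8 CPM in vehicle and at 107, 53.8 and 104 CPM after RCM1-NPFA, and *Cd8a*, of cytotoxic T cells, at 13.6, 2.28 and 1.01 against 2.75, 1.18 and 2.52 CPM. For each, m1 alone set the direction.

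The effect of RCM1-NPFA was also measured in tumors that had VCR, as VCR + RCM1-NPFA (m10 to m12) against VCR (m4 to m6), which share no tumor with the comparison above. With edgeR 0 genes (0%) passed there, and 0 genes (0%) differed between the RCM1-NPFA effects by the interaction term at an adjusted p of 0.1 (lowest 0.293), with 2437 (13.8%) at an unadjusted p under 0.05. Without overlap in both comparisons, 296 genes (1.68%) went opposite ways and 32 (0.182%) the same way. The median log2 fold change of the muscle fibre list was -1.36 when RCM1-NPFA was added to VCR, where VCR tumors held 4747, 14548 and 2266 CPM of these genes and the tumors with both drugs 2886, 5685 and 854. The endothelial median was -0.16 there, that of collagen and matrix 0.016 and that of the interferon and MHC class I list 0.70. Summed endothelial levels were 449, 559 and 421 CPM in the VCR tumors and 418, 437 and 441 CPM with both drugs. All of these were above every vehicle tumor, the highest of which was at 408 CPM, so higher vessel transcripts were not particular to RCM1-NPFA alone. *Rgs5* had a log2 fold change of -0.20, *Hs6st1* -0.075, *Col1a1* 0.016 and *Egfr* 0.19 when RCM1-NPFA was added to VCR. Of these, the interaction had an unadjusted edgeR p of 0.000144 for *Rgs5*, 0.000749 for *Hs6st1*, 0.0174 for *Col1a1* and 0.000169 for *Egfr*. None of them passed an adjusted p of 0.1. The interaction contains the comparison with vehicle, for whose differences these genes are described above. Their unadjusted p-values are therefore values only and no separate support for a difference.

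**Figure D5:**
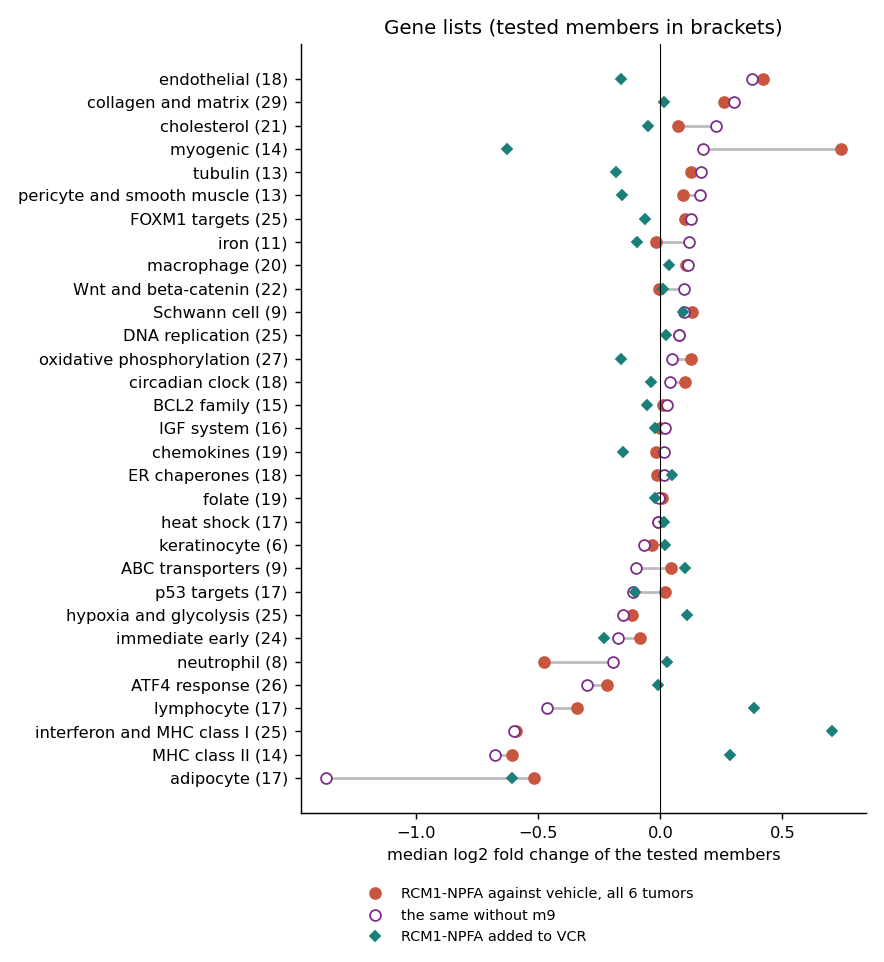
Median log2 fold change of the tested members of 31 gene lists, for RCM1-NPFA against vehicle (red), for the same without m9 (open purple) and for RCM1-NPFA added to VCR (green). Among the lists drawn, the endothelial and collagen lists stay at the top without m9. The myogenic median drops from 0.74 to 0.17, and the adipocyte median moves from -0.52 to -1.37. The lists of muscle fibre, erythroid and Y-linked genes, each with a larger value in at least 1 of these comparisons, are not drawn. The erythroid median was 0.11, 0.38 without m9 and -3.31 for RCM1-NPFA added to VCR.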

How the data were processed

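Bulk RNA of 12 Rd76-9 tumors was sequenced as poly-A libraries. The authors assigned the reads to RefSeq transcripts of GRCm38 with kallisto (version not given in the sources used here) and deposited expected counts and TPM per transcript. The kit marks strand but the libraries were described as not stranded, so overlapping antisense genes cannot be told apart, and near-identical copies share reads. Here 120299 transcripts were summed to 38898 genes and the deposited expected counts were rounded. Genes were kept by filterByExpr with a minimum count of 10, leaving 17602. Tumors were grouped by their titles. edgeR 4.0.16 in R 4.3.3 (TMM, quasi-likelihood F test) fitted all 12 tumors as 4 groups, with Benjamini-Hochberg adjustment over all genes and the study's threshold of 0.1. Single genes were also compared by a two-sided exact permutation test of log2(CPM + 0.1). TPM, per transcript length, was used only to compare levels between genes. DESeq2 1.42.0, limma-voom (limma 3.58.1) and fits without each tumor were alternatives, and the fits were tested on simulated data. An increase was counted as resting on a tumor when its log2 fold change, of at least 1 in size, shrank to under 0.5 of itself or changed sign without it.

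The genes, gene lists and comparisons were chosen with earlier results of these data known, so none of them is independent evidence. Named genes were 20 key genes of the study's question, the 8 genes with the lowest p in each direction without overlap between groups (with and without m9), the 6 whose change shrank most without m9, up to 8 DESeq2 calls in each direction, and of each of 34 lists the 4 members with the lowest p and those without overlap. Predicted genes were counted but not named. Promoters and coordinates are from RefSeq on GRCm38.p6.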

Additional observations from a re-analysis of the deposited data

Results flagged for a closer look

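For 23 of the genes followed, every RCM1-NPFA tumor lay on one side of every vehicle tumor and, in the mice given VCR, every tumor with added RCM1-NPFA lay on the other side. By the edgeR interaction term none of them differed between the settings at an adjusted p of 0.1, with adjusted p from 0.293 to 0.314. Each had an unadjusted interaction p under 0.05, as had 2437 of all 17602 genes. Over all genes, 296 (1.68%) went opposite ways without overlap in both comparisons. Some of the genes followed were picked for having no overlap between RCM1-NPFA and vehicle tumors, so 23 cannot be read against that share. These genes are therefore listed as values only. All values are log2 fold changes of RCM1-NPFA, first over vehicle and then on top of VCR.

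Muscle genes were higher over vehicle and lower on top of VCR. *Actn2* had 5.32 and -1.59, *Mb* 6.14 and -1.65, *Myh1* 4.33 and -1.98, and *Myl4* 0.65 and -0.40. Tubulins had smaller values of the same signs, with 0.11 and -0.18 for *Tuba1c*, 0.26 and -0.21 for *Tubb4b*, and 0.17 and -0.18 for *Tubb6*. The mitotic activator *Cdc20* had 0.12 and -0.18, *Creld2*, of the endoplasmic reticulum stress response, 0.16 and -0.15, *Mgat3* 0.61 and -0.15, and *Phlda3* 0.52 and -0.21.

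The other 12 genes were lower over vehicle and higher on top of VCR. *Egfr* had -0.46 and 0.19, *Igf1r* -0.19 and 0.22, *Kmt2d* -0.31 and 0.25, *Setd5* -0.32 and 0.29, and *Rreb1* -0.33 and 0.27. *Tsc1* had -0.38 and 0.31, *Znrf3*, a ligase that removes Wnt receptors, -0.17 and 0.33, *Snrnp200* -0.33 and 0.12, and *Zfp646* -0.34 and 0.13. *Tmcc3* had -0.76 and 0.34, *Evi2* -1.12 and 1.27, and *Fasn* -0.29 and 0.096.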

How the results depend on the processing

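No paired analysis was possible because no label pairs a vehicle tumor with an RCM1-NPFA tumor. With edgeR, 0 genes were called with DESeq2 size factors, without a filter, at a mean of at least 50 counts, at an adjusted p of 0.05, with only the 6 tumors, with length offsets, with a muscle or Y-linked term, with robust fitting and by limma-voom. DESeq2 called 278 genes with 12 tumors, 173 at 0.05 (chosen after seeing the data) and 34 with only the 6 tumors. Without single tumors edgeR called 0 to 8 genes, 8 without m3, and DESeq2 41 (without m9) to 620 (without m3), with 69 without m2. Genes without overlap numbered 2009, and 3121 to 4866 without single tumors, where fewer tumors have to be apart. *Foxm1* stayed between 0.072 and 0.227 without single tumors and passed no threshold. Signs turned for values near 0 or resting on 1 tumor, and the cause was not tested. *Mki67* became 0.035 with the Y-linked term, 0.0037 by limma-voom and 0.0032 with only the 5 other tumors without m9. *Ctnnb1* became -0.0034 without a filter, -0.017 at a mean of 50 counts and -0.0081 with the Y-linked term, *Slc19a1* -0.046 with that term, and *Ccnd1* 0.042 with the muscle term and 0.042 with the 5 tumors. *Myh4* became -0.64 and *Actn3* -0.50 with the muscle term, and -0.29 and -0.13 with the 5 tumors. The muscle term was made from the summed CPM of the muscle fibre list, so genes of that list were adjusted for a sum that includes them.

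Without single tumors, the range over edgeR and DESeq2 was -0.133 to 0.122 for *Mki67*, -0.020 to 0.154 for *Ccnb1*, -0.115 to 0.043 for *Ccnd1*, -0.032 to 0.022 for *Ctnnb1*, -0.114 to 0.148 for *Slc19a1*, -1.72 to 1.05 for *H2-Aa* and -1.88 to 0.38 for *Cd8a*, the last 2 positive without m1. *Actn3* ran from -0.15 without m9 to 8.97 without m1. *Myh4* ran from -0.29 without m9 to 29.2 without m1, a fitted value that is no fold, since the other vehicle tumors were at 0 counts. The other 83 genes followed kept their direction under every setting run. With 3 tumors a group, and vehicle tumors that differ in leukocyte and fat transcripts, the spread within groups limits what can be called, and genes under about 1 CPM rest on few reads.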
